A study of Mus musculus with 4 samples.

Results

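The genes described here are 35 genes with which adipocytes store, release and make fat, chosen as a fixed list of the 32285 genes counted. Mouse mesenchymal progenitor cells of the line C3H 10T1/2 (Clone 8) were profiled by single cell RNA sequencing in 4 libraries. The cells carried a lentiviral H3.1 transgene with HA and FLAG tags, either wild type (H3WT) or with arginine replaced by cysteine at residue 26 (H3R26C), under puromycin selection. The 2 genotypes were each given vehicle (DMSO) or 5-Azacitidine (5-Aza) at 3 µM for 24 h, and the 5-Aza cells were collected on day 28. For the DMSO cells the day is not given in the sources used here, so treatment and time in culture cannot be told apart. All 4 groups kept their own histone H3 genes, so the transgene product was added to the normal pool. Each condition was 1 library, so no test between conditions was made, and differences between libraries and between conditions cannot be told apart.

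A white adipocyte keeps triglyceride in a lipid droplet coated by perilipins, fills it with fatty acids that it takes up or makes from glucose, and empties it through a cascade of lipases. It also secretes hormones such as adiponectin. Enzymes that make and handle fatty acids are used by most dividing cells for membranes, whereas droplet coat proteins, the beta-3 adrenergic receptor and adipokines are textbook marks of the mature fat cell. 5-Aza, an inhibitor of DNA methylation, is a classical agent for turning this cell line into fat, muscle and cartilage.

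Cells with at least 5000 UMIs (unique molecules counted), at least 1500 genes and at most 20% mitochondrial UMIs were kept, which left 22049 of 39891 barcodes. They numbered 3710 for H3WT DMSO, 4727 for H3R26C DMSO, 5993 for H3WT 5-Aza and 7619 for H3R26C 5-Aza, with 84060490 to 110712425 UMIs per library. Wherever 4 values are listed, they are in this order of libraries. The median UMIs per kept cell were 22420, 16598, 13149 and 13123. A cell was called adipocyte-like where Adipoq, Plin1, Cidec, Retn and Cfd together gave at least 10 UMIs, not scaled to depth. There were 74 such cells, 13, 13, 31 and 17 in the 4 libraries. Their shares were 0.350% (exact binomial 95% interval 0.187 to 0.598), 0.275% (0.147 to 0.470), 0.517% (0.352 to 0.733) and 0.223% (0.130 to 0.357). The share in H3R26C was 0.431 times that in H3WT after 5-Aza (exact 95% interval 0.224 to 0.804) and 0.785 times after DMSO (0.335 to 1.84). In DMSO the order depended on the gate. Cells with at least 200 gate UMIs numbered 1 in H3WT DMSO and 9 in H3R26C DMSO, so H3R26C had the larger share. After 5-Aza they numbered 14 in H3WT and 4 in H3R26C. All intervals cover counting error only and treat each molecule or cell as independent.

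Most kept cells lay far below the gate, while a part of the gated cells lay near it. Of the kept cells 21485 had no UMI of the 5 gate genes, 473 had 1 to 4, and 17 had 5 to 9. Of the 74 gated cells 28 had at least 200 and another 28 at least 50. The other gated cells, with 10 to 49, numbered 5, 1, 7 and 5 in the 4 libraries. The highest cells outside the gate had 8 or 9 UMIs, and the lowest inside had 10 to 14. All 5 gate genes were detected in 36 of the 74 cells, and at least 4 in 52. By library at least 4 were detected in 6 of 13, 13 of 13, 21 of 31 and 12 of 17 cells. No adipocyte-like barcode was shared between libraries, although 24 to 58 kept barcodes were shared by each pair. The median mitochondrial share of the gated cells was 11.7%, 6.87%, 6.54% and 3.29% in the 4 libraries, against 2.55% to 3.86% over all kept cells. Of the gated cells 1 also held 1117 UMIs of 6 skeletal muscle genes and 4 others held at least 10 UMIs of 5 cell division genes, and leaving out these 5 cells changed the class of no member. Doublets were not removed.

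The promoters of Adipoq and Fasn are shown because the first gene was confined to adipocyte-like cells and the second had a UMI in 46.5% to 87.3% of other kept cells of a library, while both windows hold the same short motif. The shares of cells with a Fasn UMI were not adjusted for depth. The 250 bases before the start of transcription are given 5′ to 3′ in RefSeq's GRCm38.p6 promoter table, with CCAAT on either strand in capitals (Adipoq at chr16:23146286-23146535, plus strand, and Fasn at chr11:120824548-120824797, minus strand).
Adipoq: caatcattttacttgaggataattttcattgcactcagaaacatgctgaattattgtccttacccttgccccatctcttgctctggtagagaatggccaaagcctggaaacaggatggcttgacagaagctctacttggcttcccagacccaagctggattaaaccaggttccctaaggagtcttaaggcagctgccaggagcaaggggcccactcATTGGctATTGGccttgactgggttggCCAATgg
Fasn: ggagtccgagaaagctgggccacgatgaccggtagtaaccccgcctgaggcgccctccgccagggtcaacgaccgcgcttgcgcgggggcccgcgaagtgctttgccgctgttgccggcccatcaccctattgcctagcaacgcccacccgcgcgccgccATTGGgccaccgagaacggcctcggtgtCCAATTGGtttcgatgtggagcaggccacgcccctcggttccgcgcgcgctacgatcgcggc

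Both windows held 3 matches to CCAAT, a number reached by 2.79% of the 32851 promoters in the table, and the last 2 matches of Fasn overlapped. At least 1 match was found in 33.8% of all promoters and in 8 of the 30 promoters listed for 23 of the 35 members. The windows differed in base composition, with 48.8% G and C for Adipoq and 69.2% for Fasn. The C/EBP letters TTGCNNAA were found in Plin1, Cidec and Lep and in 9.56% of all promoters. The PPAR-RXR element, read as a pair of AGGNCA with 1 base between, was found in no member and in 0.338% of all promoters. A match describes letters in this window and was not tested as a binding site.

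Each gene was then placed by where its UMIs lay. A gene was called confined where at least 50% of its UMIs came from adipocyte-like cells, enriched where under 50% did but its level was at least 4 times that in all other kept cells, and spread where the ratio was under 4. Levels are in CPM, a gene's UMIs summed over cells and scaled to a common total of UMIs. Of the 35 members 8 were confined, 20 enriched and 5 spread, and Lep and Pck1 had fewer than 20 UMIs in all. Of 17160 genes with at least 20 UMIs, 0.128% were confined, 4.03% enriched and 95.8% spread. The median ratio of adipocyte-like to other cells was 49.5 over the 33 members classed and 40.3 without the 5 gate genes, against 0.654 over all genes. The 5 gate genes chose the cells, so their ratios and their class are a description. Without them 3 of the 28 members classed were confined, beside 0.128% of all genes. The gate genes themselves were at 2174, 4179.9, 3397 and 4094 CPM for Adipoq, the hormone adiponectin, and at 225, 639.6, 393 and 521 CPM for Plin1, the coat protein of fat cell droplets. Cidec, which fuses droplets, was at 85.7, 459, 387 and 244 CPM. When each gate gene was judged by cells that passed 10 UMIs of the other 4, 87.6% (Adipoq) to 97.5% (Cfd) of its UMIs still fell in those cells.

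**Figure D1:**
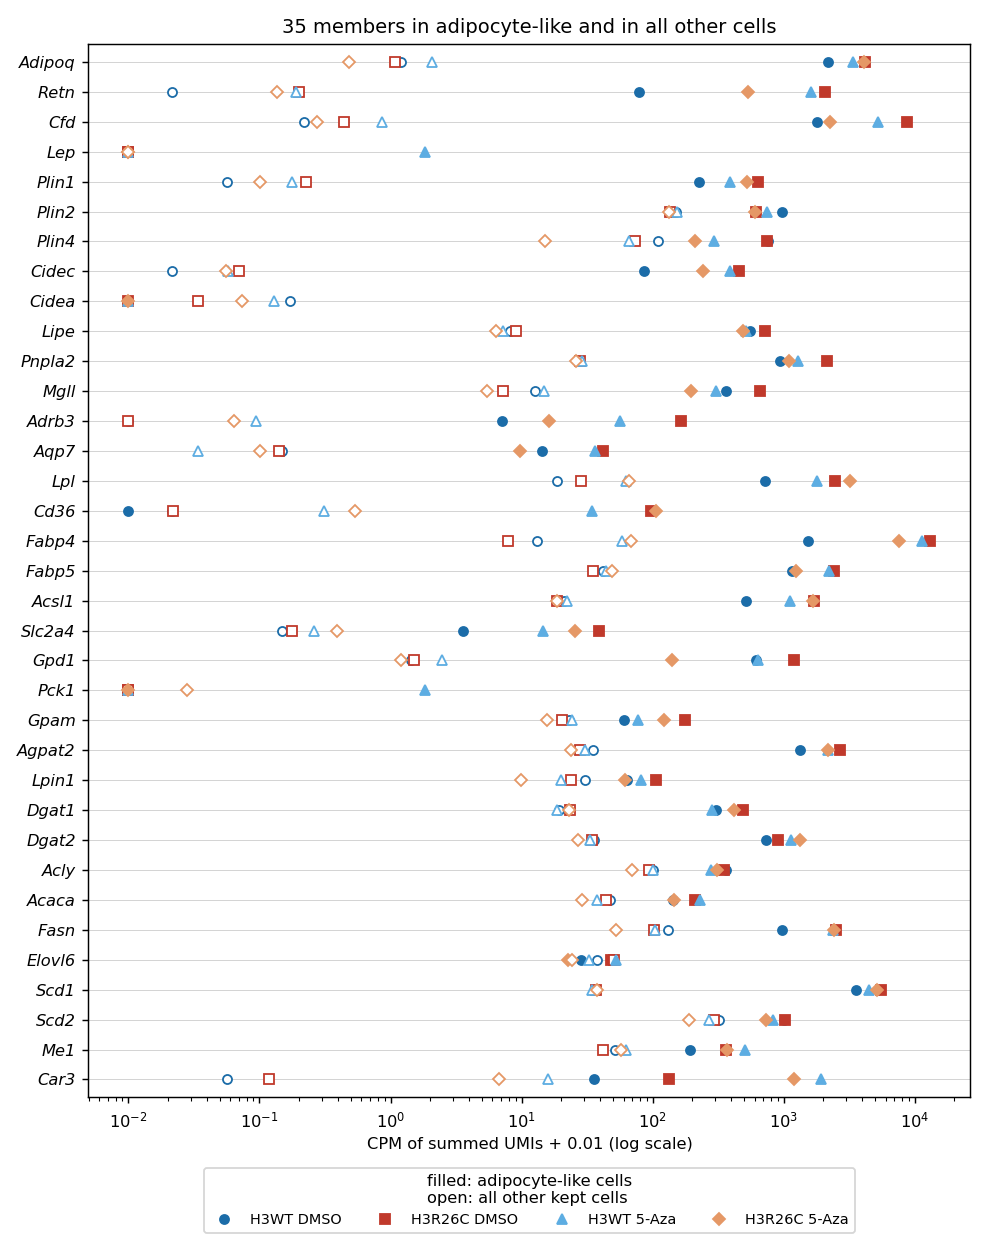
CPM of summed UMIs plus 0.01, on a log axis, for each of the 35 members (rows) in each library (colour and shape), in adipocyte-like cells (filled) and in all other kept cells (open). Adrb3, Gpd1 and Aqp7 lie far apart in the 2 kinds of cell, while the filled and open points of Elovl6 overlap.

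Outside the gate genes, 3 members were confined. Adrb3, the receptor through which noradrenaline starts fat breakdown, had 87.3% of its UMIs in adipocyte-like cells, 89 UMIs inside and 13 outside. Its level inside was 7.14, 165, 56.1 and 16.1 CPM in H3WT DMSO, H3R26C DMSO, H3WT 5-Aza and H3R26C 5-Aza, and both DMSO libraries had no UMI of it in any other kept cell, which allows at most 0.0346 and 0.0358 CPM (3 counts). Gpd1, which makes the glycerol phosphate backbone of triglyceride, had 61.6% of its UMIs inside and was 402 times as high there (362 to 447). Aqp7, the channel by which glycerol leaves the fat cell, had 53.3% inside, 40 UMIs against 35 outside. None of the 3 was confined in every library. In H3R26C 5-Aza the share inside was 45.5% for Adrb3, 25.1% for Gpd1 and 23.1% for Aqp7, and in H3WT DMSO it was 25% for Aqp7. The ratio of Gpd1 ran from 119 in H3R26C 5-Aza to 797 in H3R26C DMSO. Of the confined members Aqp7 lay nearest to the 50% line over the libraries together. Just below it lay 2 enriched genes, the fatty acid transporter Cd36 at 49.1% and the fatty acid binding protein Fabp4 at 47.9%. In the 4 libraries the share inside was 0%, 96.8%, 43.2% and 36.3% for Cd36. For Fabp4 it was 27.3%, 86.1%, 56.1% and 23.6%.

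The lipases and their partners stood between. Lipe, hormone-sensitive lipase, was 73.8 times as high in adipocyte-like cells (68.2 to 79.9), and the ratio ran from 67.9 to 79.3 over the 4 libraries. Pnpla2, the lipase that takes the first fatty acid off triglyceride, had a ratio of 49.5, and Mgll, which takes the last, had 37.8. Lipe was the steadiest of these, at 549.8, 724, 518 and 489 CPM inside, whereas the ratio of Mgll ran from 20.4 to 91.8 over libraries. Pnpla2 was at 935, 2145, 1289 and 1094 CPM inside and Mgll at 361, 665, 302 and 196 CPM. All 3 had most of their UMIs outside the gate, with 22.7%, 16.5% and 13.1% inside for Lipe, Pnpla2 and Mgll.

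Over the libraries together all 6 genes of uptake and activation were enriched. Lpl, the lipase that frees fatty acids from lipoproteins, had a ratio of 45.1 and Acsl1, which activates them with coenzyme A, had 62.4. The insulin-responsive glucose transporter Slc2a4 had a ratio of 81.7 on 29 UMIs inside and 89 outside. Inside, Lpl was at 721, 2481, 1804 and 3232 CPM and Acsl1 at 514, 1709, 1122 and 1663 CPM, both lowest in H3WT DMSO. Cd36 was at 0, 96.9, 34.4 and 106 CPM and was in 0, 7, 9 and 7 cells. Fabp4 was 230.2 times as high inside and its relative Fabp5 was 42.8 times as high. The ratio of Fabp4 ran from 109.7 in H3R26C 5-Aza to 1670.3 in H3R26C DMSO, so the libraries differed in it by more than 10-fold.

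Triglyceride assembly differed from step to step, without a gradient along the pathway. Agpat2, which adds the second fatty acid, had a ratio of 73.6, and Dgat2 and Dgat1, which add the last, had 32.7 and 16.9. Gpam, the mitochondrial enzyme of the first step, had only 5.16, and Lpin1, which removes the phosphate before the last step, was spread at 3.90. The interval of Lpin1, 3.22 to 4.69, spanned the 4-fold line, and its ratio ran from 2.12 to 6.22 over the libraries. Dgat1 was the steadiest of these, with 15.2 to 20.7 over the libraries. Inside, Agpat2 was at 1332, 2707, 2192 and 2184 CPM, Dgat2 at 732, 904, 1142 and 1325 CPM and Dgat1 at 303, 488, 282 and 415 CPM. Gpam was at 60.7, 178, 77.8 and 122 CPM and Lpin1 at 64.3, 107, 81.4 and 61.1 CPM. No library was the lowest for all 5. Of the companion genes of assembly, Gpat3, another acyltransferase of the first step, had a ratio of 52.5. Gpat4, which also acts at that step, was spread at 1.98.

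Fatty acid synthesis held genes of every ratio from near 1 to over 100. The desaturase Scd1 had a ratio of 128 (124 to 131) with 33.7% of its UMIs inside, whereas its paralog Scd2 had 3.37 (3.19 to 3.56) with 1.33% inside. Fasn, fatty acid synthase, had 22.8. Me1, which supplies NADPH, had 7.18 and Acaca, which makes malonyl-CoA, had 4.90, the enriched gene nearest to the 4-fold line. Acly, which makes cytosolic acetyl-CoA, was spread at 3.53, and the elongase Elovl6 was at 1.14 with an interval of 0.871 to 1.48, which includes 1. Inside, Scd1 was at 3577, 5530.2, 4472 and 5201 CPM and Fasn at 967, 2516, 2369 and 2441 CPM. Me1 was at 193, 365, 505 and 369.9 CPM, Acaca at 143, 210.0, 229.8 and 145 CPM, and Elovl6 at 28.6, 48.5, 52.5 and 22.5 CPM. The enzymes with high ratios were thus again lowest in H3WT DMSO. Scd1 and Scd2 have similar coding sequences, and how reads shared by both were counted was not tested.

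Droplet proteins also split. Plin1 and Cidec are gate genes, Plin2, the coat protein of most cells, had a ratio of 5.15, and Plin4 had 7.40 with 4.48 in H3WT 5-Aza and 14 in H3R26C 5-Aza. Inside, Plin2 was at 975, 617, 751 and 608 CPM, highest in H3WT DMSO. Cidea, a droplet protein of brown fat, had 33 UMIs, none of them in adipocyte-like cells. A count of 0 there allows at most 5.43 to 10.7 CPM per library. In other kept cells Cidea was at 0.0905 CPM, far below that limit, so its class of spread cannot be judged. Ucp1, the uncoupling protein of brown fat, had 48 UMIs outside, at 0.132 CPM, and none inside, so the same holds for it.

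The other genes of the pathway were read the same way. Over all genes 0.128% were confined and 4.03% enriched. Of 12 adipogenic regulators 6 were enriched and 6 spread, and 1 of the enriched rested on 1 UMI inside. Nr1h3, a sterol-sensing nuclear receptor, had a ratio of 89.8 on 34 UMIs inside and 95 outside, Klf15 had 36.3 and Cebpa 34.1. Pparg, the master regulator of fat cell formation, had a ratio of 10.1, at 229 CPM inside and 22.6 CPM in other cells. The lowest were Cebpd at 0.328 and Ebf2 at 0.462, both factors that act early in adipogenesis. Ebf2 rested on 3 UMIs inside, with an interval of 0.0952 to 1.35. Of 25 other lipid genes 2 were confined, Thrsp (ratio 465), a small protein of fat synthesis, and Lgals12 (ratio 290), a droplet lectin. Another 8 of them were enriched, and Lpin3 (0.197 on 2 UMIs inside) and Plin3 (0.544) were lowest. Of 16 cholesterol synthesis genes 4 were enriched, Dhcr7 at 5.64, Pmvk at 5.52, Insig1 at 5.45 and Fdps, and Srebf2, the transcription factor that drives the pathway, was at 0.996. Of 12 fatty acid oxidation genes 5 were enriched, the highest at 16.3 for Ehhadh on 10 UMIs inside, 5.87 for Cpt2 and 4.92 for Cpt1b on 5 UMIs inside, whereas Cpt1a was at 0.408 and Slc25a20 at 1.07. Of 5 brown fat genes 2 were enriched, Cox8b at 32.8 and Prdm16 at 5.83 on 2 UMIs inside, followed by Ppargc1a at 2.35. Dio2 was at 0.203 on 1 UMI inside, with an interval of 0.00513 to 1.13. Outside all lists the highest ratios were those of Wfdc21, S100a8, Orm1, Adig, Slc36a2, Mrap, Ephx2 and Ltc4s, from 1723 for Wfdc21 to 111 for Ltc4s.

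Marker lists of other cell types were set beside these results. The progenitor list summed to 1646, 1098, 2338 and 3602 CPM in the adipocyte-like cells, against 7032, 6752, 8112 and 8834 CPM in the remaining cells. The 6 muscle genes summed to 0, 6.46, 118 and 3705 CPM in adipocyte-like cells, with most of the last value in the 1 cell named above. Chondrocyte markers were at 129, 19.4, 114 and 41.8 CPM inside, against 410, 340, 343 and 215 CPM in remaining cells. Smooth muscle markers were at 16.3 to 48.2 CPM inside and 35.1 to 67.0 CPM in remaining cells. Macrophage and blood markers were at 3.57 to 25.7 CPM inside and 5.21 to 15.5 CPM in remaining cells. Osteoblast and endothelial markers had 1 and 0 UMIs inside. In remaining cells they were at 3.59 to 24.6 CPM and 0.494 to 7.20 CPM. In the barcodes left out by the filter, which had medians of 705 to 978 UMIs, the 5 gate genes summed to 20.7, 25.2, 43.3 and 13.4 CPM, and 1, 0, 3 and 0 of these barcodes met the gate. Kept cells outside the gate, which had to have fewer than 10 gate UMIs, were at 1.47, 1.96, 3.31 and 0.996 CPM. Damaged cells and free RNA were not separated, and the part of free RNA in the low levels outside the gate was not tested.

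Many members climbed with the gate genes, to different degrees, and some did not. Over the 4 libraries, cells were sorted by UMIs of the 5 gate genes into those with 0, 1 to 2, 3 to 9, 10 to 49, 50 to under 200 and at least 200. Scd1 was at 34.2, 70.5, 1069, 1657, 4314 and 6573 CPM over these groups, and Agpat2 at 27.7, 60.6, 400.1, 671, 2118 and 2915. Both were thus more than 10 times as high at 3 to 9 UMIs, just outside the gate, as at 0. Fabp4 was at 38.6, 47.7, 306, 887, 5128 and 16534 CPM, and Lpl, Pnpla2 and Fasn also rose from each group to the next. Fabp5 was at 43.0, 42.3, 52.0, 272, 1284 and 3133 CPM, so that it differed little until the gate was passed. Plin4 was at 61.2, 114, 394, 473, 491 and 439.6 CPM and stayed level once inside. Plin2 was at 141, 211, 542, 844, 546 and 835 CPM, and Elovl6 was between 25.3 and 53.7 CPM in every group. The group at 3 to 9 held 35 cells and the next 18, so their levels rest on few cells, and the sorting genes share library and depth with the genes plotted. The groups also differed in their mix of libraries. H3WT DMSO gave 5 of the 18 cells at 10 to 49 and 1 of the 28 at 200 or more. Gate level and library thus cannot be told apart here.

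**Figure D2:**
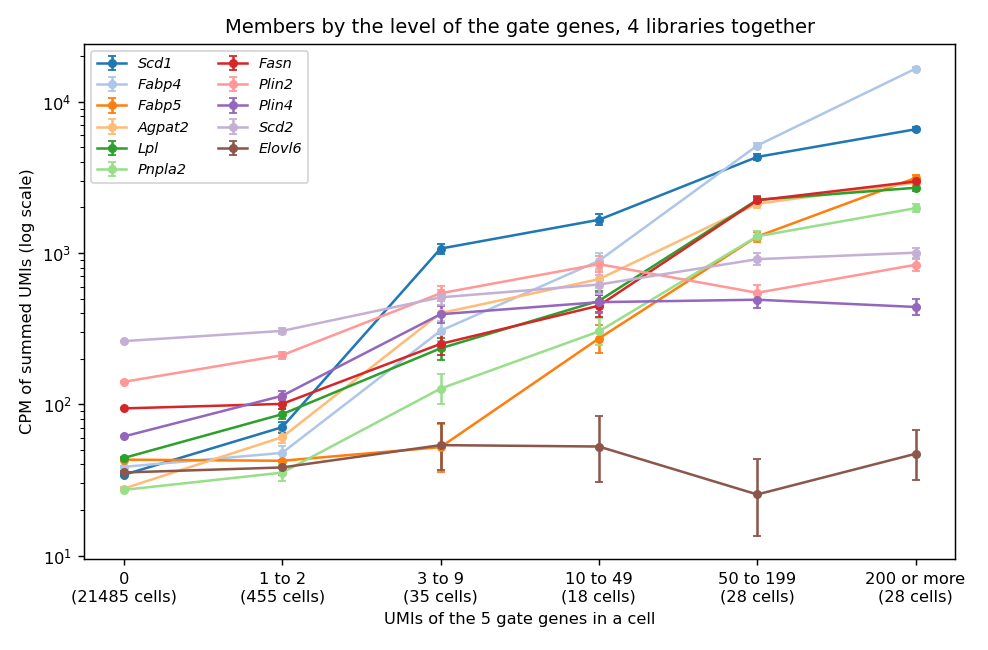
CPM of summed UMIs (log axis) of 11 members in cells sorted by their UMIs of the 5 gate genes, with exact Poisson 95% intervals, all 4 libraries together. Scd1 is past 1000 CPM at 3 to 9 gate UMIs, Fabp5 is at 52.0 CPM there, and Elovl6 has no slope.

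Within adipocyte-like cells the 2 DMSO libraries differed. Among 28 members with at least 100 CPM in either, 14 were at least 2-fold higher in H3R26C on the log2(CPM + 1) scale and 0 were lower, where 7.21% of all 1706 genes were higher and 6.68% lower. The members' median log2 ratio was 0.99, against 0.06 over all genes. Of the 14, 4 are gate genes, whose UMIs chose the cells. Without gate genes 10 of 23 members were higher and 0 lower, with a median of 0.92. In H3R26C DMSO all Car3 UMIs lay in 1 cell. For the others of these 10 the highest cell gave 13.8% (Acsl1) to 35.4% (Fasn) of the UMIs, and 29.4% for Fabp5. How the calls depend on single cells was not tested. The 14 were Retn, Cfd, Plin1, Cidec, Pnpla2, Adrb3, Lpl, Fabp4, Fabp5, Acsl1, Gpam, Agpat2, Fasn and Car3. Retn, Cidec, Adrb3, Gpam and Car3 were under 100 CPM in H3WT. They passed the limit only through H3R26C, where they were high, so their calls are a description. Fabp4 was at 1528, 13183, 11324 and 7542 CPM, 8.63-fold higher in H3R26C DMSO than in H3WT DMSO (7.81 to 9.55). Retn, resistin, was at 78.5, 2054, 1618 and 537 CPM, and Cfd, the complement factor adipsin, at 1792, 8812, 5243 and 2271 CPM. H3WT DMSO was therefore the low library for all 3 genes, and it held Retn in 3 of 13 cells. Of the spread genes, Acly was at 364 and 349 CPM in H3WT and H3R26C and Scd2 at 1014 and 1018 CPM, whereas Lpin1 was at 64.3 and 107 CPM and Elovl6 at 28.6 and 48.5 CPM. Plin4 was at 764 and 753 CPM, and Plin2 was the lower in H3R26C, at 975 and 617 CPM.

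These cells also differed in how strongly they passed the gate, with medians of 67, 287, 167 and 116 gate UMIs. Their median mitochondrial share was highest in H3WT DMSO, as given above, and its part in the difference was not tested. Among cells with at least 100 gate UMIs, a limit added after the values were seen, 5, 12, 22 and 9 cells remained. Without gate genes, 3 of 24 members were then higher in H3R26C DMSO than in H3WT DMSO (Fabp4, Adrb3 and Cd36) and 0 lower, where 6.75% of genes were higher and 7.1% lower, and the members' median was 0.28 against 0.05 over all genes. Of the 10 members higher among all gated cells, 8 were thus no longer past 2-fold. Adrb3 and Cd36 were at 19.3 and 0 CPM in H3WT DMSO and passed 100 CPM only through H3R26C DMSO. Pnpla2 was at 1576 and 2267 CPM, Lpl at 1479 and 2601 CPM, Agpat2 at 1798 and 2880 CPM and Fasn at 1808 and 2491 CPM in H3WT and H3R26C. Fabp4 was at 2243, 13916, 14565 and 10743 CPM in the 4 libraries. The values for H3WT DMSO rest on 5 cells here.

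**Figure D3:**
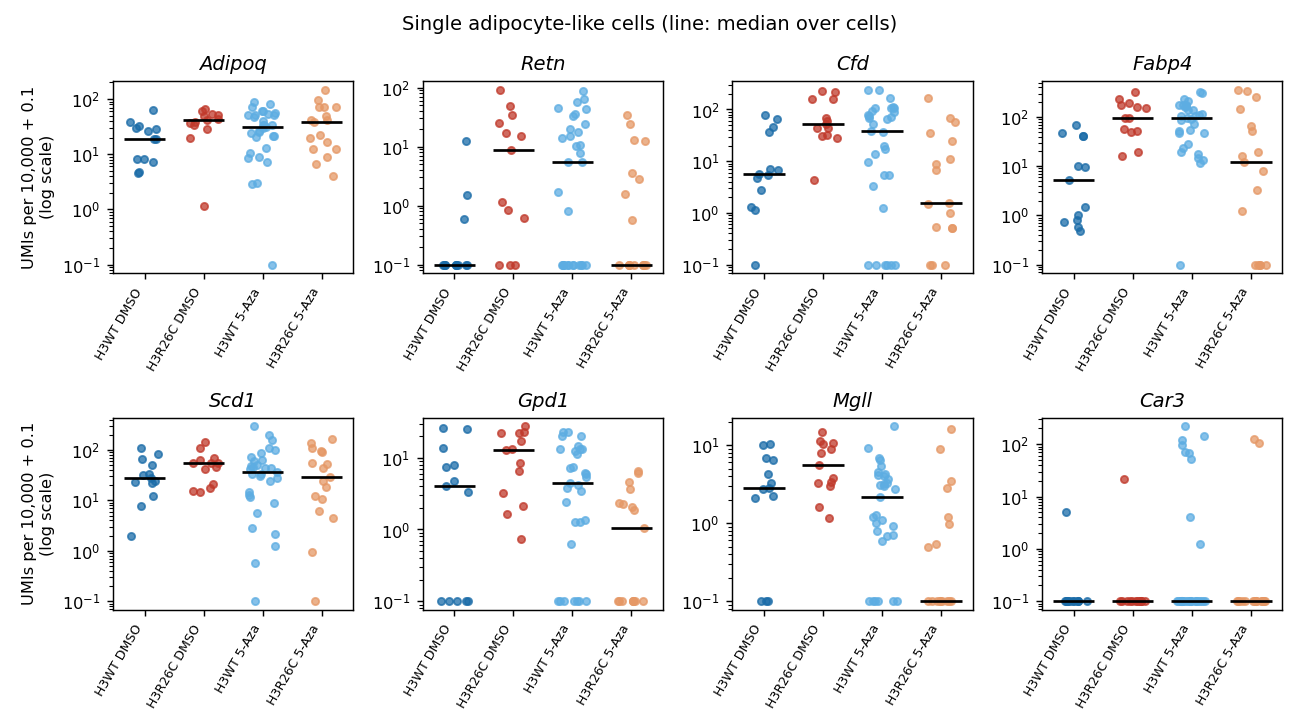
UMIs per 10,000 UMIs of the cell plus 0.1 (log axis) of 8 members in each of the 74 adipocyte-like cells, by library, with the median over cells as a line. Adipoq, Retn and Cfd are gate genes, whose UMIs chose the cells. Adipoq is present in nearly all cells, Retn is above 0 in 3 of 13 H3WT DMSO cells, and Car3 is in 1, 1, 9 and 2 cells.

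After 5-Aza the adipocyte-like cells of the genotypes were closer, with 1 of 27 members higher in H3R26C (Cd36) and 3 lower (Retn, Cfd and Gpd1), where 5.61% of 1766 genes were higher and 3.28% lower. The members' median log2 ratio was -0.19, against 0.03 over all genes. Retn and Cfd are gate genes, and without gate genes 1 of 22 members was higher (Cd36) and 1 lower (Gpd1). Cd36 was under 100 CPM in H3WT and passed the limit only through H3R26C, where it was high. Gpd1 was at 142 CPM in H3R26C and 635 CPM in H3WT, a 4.49-fold gap (3.27 to 6.29). It was detected in 9 of 17 and 24 of 31 cells. Mgll was seen in 8 of 17 H3R26C cells and 25 of 31 H3WT cells, at 196 and 302 CPM. Lpl went the other way, at 3232 and 1804 CPM, and was detected in all 17 H3R26C cells. Under the limit of 100 gate UMIs these were again the 2 members called outside the gate genes, of 21, where 5.93% of genes were higher and 4.89% lower, and Gpd1 was at 180.4 and 869 CPM.

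Within adipocyte-like cells 5-Aza and DMSO were also set side by side in each genotype, the DMSO and 5-Aza libraries being the ones compared above. In H3WT, 9 of 25 members were higher after 5-Aza and 1, Plin4, was lower, where 7.36% of genes were higher and 3.94% lower. In H3R26C, 1 of 29 members (Car3) was higher and 6 were lower (Retn, Cfd, Plin4, Mgll, Adrb3 and Gpd1), where 12.3% were higher and 8.13% lower. Without gate genes the counts were 6 higher and 1 lower of 20 in H3WT, and 1 higher and 4 lower of 24 in H3R26C. Retn, Cidec and Car3 in H3WT, and Adrb3 in H3R26C, passed 100 CPM only in the library where they were high. Plin4 was lower after 5-Aza in both, from 764 to 295 CPM in H3WT and from 753 to 212 CPM in H3R26C. Gpd1 was 8.47-fold lower in H3R26C (6.18 to 11.9) and at 614 and 635 CPM in H3WT. Cells also differed here in how strongly they passed the gate. Under the limit of 100 gate UMIs, Lpl was at 1479 and 2247 CPM in H3WT DMSO and 5-Aza. Acsl1 was at 1015 and 1465 CPM, Fasn at 1808 and 3186 CPM and Me1 at 358 and 644 CPM. These genes were then too close for a call. Fabp4 (2243 and 14565 CPM), Car3 (96.7 and 1745 CPM) and Plin4 (783 and 282 CPM) were not. In H3R26C, Car3, Plin4, Mgll, Adrb3 and Gpd1 stayed called. The H3WT DMSO values rest on 5 cells.

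Car3, carbonic anhydrase of fat and slow muscle, rested on few cells. It was found in 1 of 13, 1 of 13, 9 of 31 and 2 of 17 adipocyte-like cells, at 35.7, 132, 1938 and 1199.7 CPM over the cells together. In H3R26C 5-Aza a single cell gave 67.8% of its UMIs. It was thus nearly all-or-none among cells that all carried adipocyte genes.

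Over all kept cells a member's level combines the share of adipocyte-like cells with the level in each. In DMSO, 5 of 27 members were higher in H3R26C (Retn, Cfd, Plin1, Cidec and Fabp4) and 0 lower, where 1.91% of genes were higher and 0.588% lower. After 5-Aza, 0 of 28 were higher and 7 were lower (Retn, Cfd, Plin4, Cidec, Mgll, Gpd1 and Car3), where 5.03% were higher and 2.61% lower. Comparing 5-Aza with DMSO, 8 of 28 were higher and 0 lower in H3WT, where 4.88% were higher and 0.269% lower, and 1 of 28 was higher and 6 were lower in H3R26C, where 9.09% were higher and 3.02% lower. These comparisons share libraries, so they are not independent. Cfd was at 5.99, 32.9, 35.2 and 6.64 CPM and Retn at 0.265, 7.76, 10.8 and 1.63 CPM. Both genes were therefore high in H3R26C DMSO and H3WT 5-Aza and low in the other two.

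The 74 adipocyte-like cells, 0.336% of those kept, were then left out. Of the 5 higher members in DMSO, 4 are gate genes, which this step removes by its construction and leaves below 1 CPM. The other, Fabp4, turned, being 3.13-fold higher in H3R26C in all kept cells, and at 7.89 CPM in H3R26C and 13.2 CPM in H3WT outside the gate. No member of 23 was then higher or lower in DMSO, where 1.85% and 0.588% of genes were. After 5-Aza 0 of 24 were higher in H3R26C and 4 lower (Adipoq, Plin4, Mgll and Car3), where 5.04% were higher and 2.59% lower. Adipoq is a gate gene whose level outside the gate the rule limits, and without it 3 of 23 were lower. The 13 H3R26C DMSO gated cells thus held 4081 of the 4742 Fabp4 UMIs of their library.

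**Figure D4:**
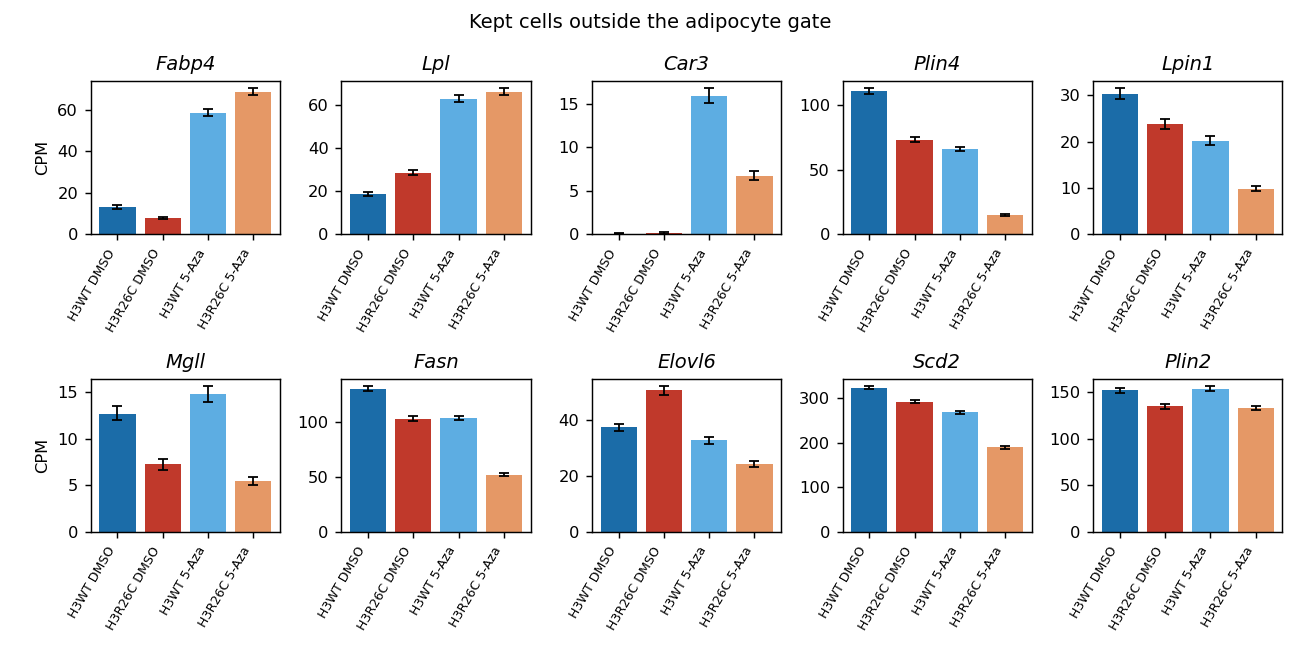
CPM of 10 members in kept cells outside the adipocyte gate, by library, with exact Poisson 95% intervals; each panel has its own axis from 0. Fabp4 and Lpl are higher in both 5-Aza libraries, and Plin4, Lpin1, Fasn and Scd2 are lowest in H3R26C 5-Aza.

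Among the cells outside the gate, 3 members were higher after 5-Aza in both genotypes, namely Fabp4, Lpl and Car3. In H3WT these were 3 of 24 members with 0 lower, where 4.83% of genes were higher and 0.277% lower. In H3R26C 3 of 24 were higher and 3 lower (Plin4, Lpin1 and Elovl6), where 9.13% were higher and 3.01% lower. Fabp4 was at 13.2 and 58.5 CPM in H3WT DMSO and 5-Aza (4.45-fold, 4.17 to 4.75) and at 7.89 and 68.7 CPM in H3R26C (8.71-fold, 8.04 to 9.44). Lpl was at 18.7 and 62.7 CPM (3.36-fold) and at 28.4 and 66.0 CPM (2.33-fold). For both genes each 5-Aza library lay above both DMSO libraries.

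Fabp4 outside the gate was spread over many cells. With every cell thinned to 5000 UMIs, the remaining cells, those in neither the adipocyte, muscle nor cycling gate, held a Fabp4 UMI in 4.99%, 3.06%, 16.8% and 19.7% of cells. Without thinning the shares were 16.1%, 8.15%, 29.1% and 32.4%. Muscle-like cells of the 5-Aza libraries held a Fabp4 UMI in 7.44% and 5.64% of thinned cells. Their levels were 13.8 and 13.3 CPM, against 61.6 and 77.8 CPM in remaining cells. Cells with at least 10 Fabp4 UMIs numbered 9, 5, 77 and 121, and gave 29.2% and 31.9% of the UMIs in the 5-Aza libraries.

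A second set of members outside the gate was lowest in H3R26C 5-Aza. Plin4 was at 111, 73.3, 65.8 and 15.2 CPM, which is 4.33-fold lower in H3R26C than in H3WT after 5-Aza (4.10 to 4.58). Thinned, 39.6%, 29.4%, 24.9% and 6.87% of these cells held a Plin4 UMI. Lpin1 was at 30.4, 23.8, 20.2 and 9.83 CPM, and Mgll at 12.7, 7.25, 14.8 and 5.47 CPM. For Mgll both H3R26C libraries lay below both H3WT libraries, while for Plin4 and Lpin1 the H3R26C 5-Aza library alone stood clearly lower. Fasn (130.4, 103, 104 and 52.2 CPM), Scd2 (323, 292, 268 and 189 CPM), Acly (69.3 CPM there and 94.4 to 101 CPM in the other libraries) and Acaca (47.5, 44.0, 38.0 and 29.0 CPM) were also lowest there, none of them past 2-fold from H3WT 5-Aza. Elovl6 was at 37.5, 50.7, 32.9 and 24.3 CPM, highest in H3R26C DMSO. Other members differed little, such as Scd1 at 34.7 to 37.4 CPM, Pnpla2 at 26.1 to 29.0 CPM and Plin2 at 133 to 154 CPM.

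Cycling and muscle-like cells gave the members a further order. Cycling cells held at least 10 UMIs over 5 division genes and numbered 152, 372, 352 and 996, so H3R26C 5-Aza had the most. Of 22 members tested in all 4 libraries, only Fabp5 was at least 2-fold higher in cycling than in remaining cells in each, where 4.83% of genes were, and only Plin4 was 2-fold lower in each, where 1.43% were. Fabp5 was at 126, 96.2, 93.9 and 86.2 CPM in cycling cells, 3.49, 3.63, 2.35 and 2.08 times its level in remaining cells. Plin4 was at 37.9, 20.8, 25.7 and 5.37 CPM against 116, 81.0, 70.8 and 18.3 CPM. Plin4 was lowest in H3R26C 5-Aza within each of the classes. The members' median log2 ratio was -0.36, against -0.06 over all genes.

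Muscle-like cells, with at least 100 UMIs over 6 muscle genes, were found only with 5-Aza, 121 in H3WT and 195 in H3R26C. Of 24 members 2 (Cd36 and Car3) were at least 2-fold higher than in remaining cells in both libraries, where 6.48% of genes were, and 7 were lower (Plin2, Plin4, Lipe, Lpl, Fabp4, Agpat2 and Elovl6), where 13.4% were. Car3 was at 303 CPM in muscle-like cells of H3WT and 49.3 CPM in those of H3R26C, against 9.14 and 5.84 CPM in remaining cells. Elovl6 was at 6.20 and 4.50 CPM against 33.8 and 25.1 CPM, and Fabp4 at values given above. Car3 in remaining cells was held by few, since the 1% of cells with the most gave 65.7% and 73.7% of its UMIs in H3WT and H3R26C. Cd36 was at 3.34 and 3.60 CPM against 0.241 and 0.378 CPM, on 7 and 16 UMIs in the muscle-like cells.

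**Figure D5:**
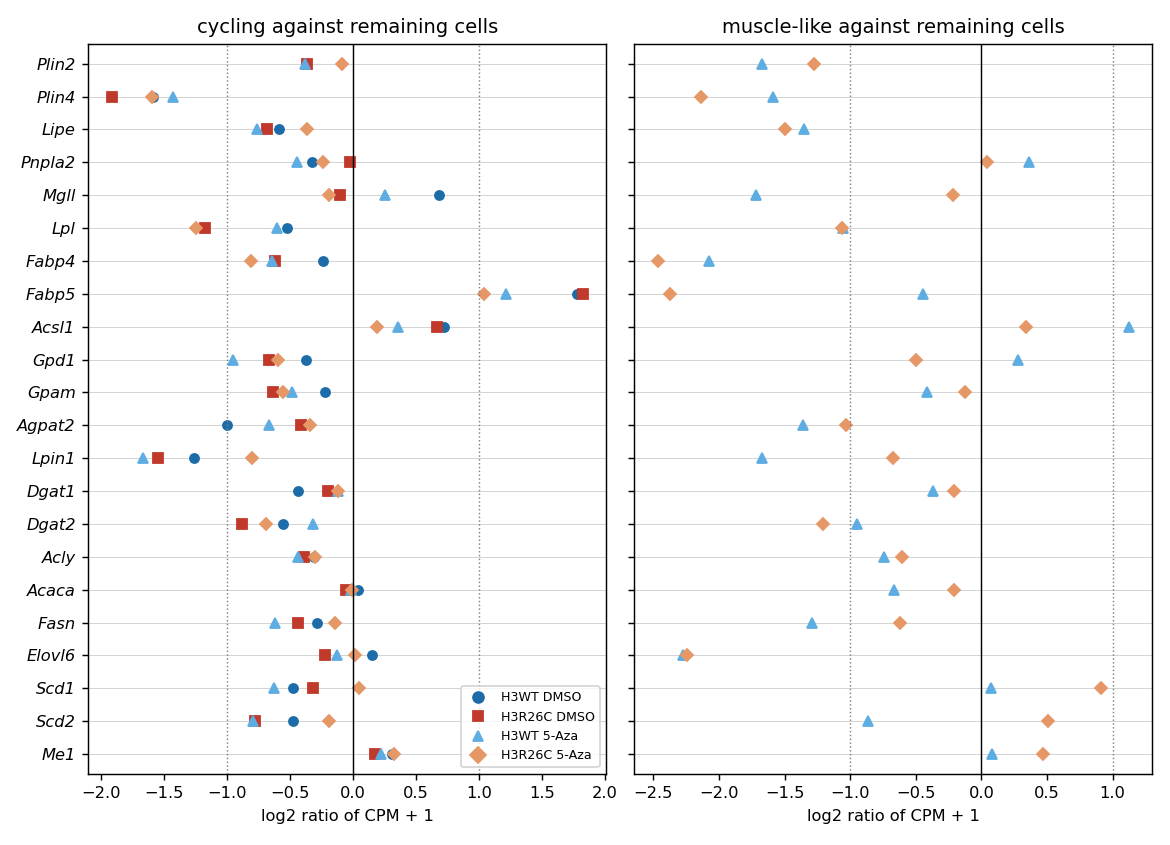
Log2 ratio of CPM + 1 in cycling (left, 4 libraries) and muscle-like (right, 2 libraries) against remaining cells for the 22 members with at least 1 CPM in every comparison; dotted lines mark 2-fold. Fabp5 lies right of 1 and Plin4 left of -1 in all 4 libraries of the left panel.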

How the data were processed

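The authors counted reads with Cell Ranger (version 6.1.0 per the file headers; Cell Ranger 6 and Seurat 4 in the submitters' processing notes) and deposited UMI counts per gene and barcode on the mm10 reference, not normalized. The study's cell filter was applied here. UMIs were summed by library and cell class and scaled to CPM, and ratios of levels were called past 2-fold on log2(CPM + 1) with at least 1 CPM in either library (100 CPM in adipocyte-like cells). A gene could thus pass this limit only through the library where it was high. No model was fitted and no p-value computed, since each condition was 1 library. Intervals are exact (Poisson, binomial or conditional, 95%). Scripts used Python 3.11.15, numpy 2.4.6, scipy 1.17.1, pandas 2.3.3 and matplotlib 3.10.9, and were tested on simulated data.

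The members, gates and gene lists were chosen with earlier results of these data known. Values per library are given for most members with at least 50 UMIs in adipocyte-like cells or 10 CPM in a library. Inside the gate, Fabp5 has only a ratio over the libraries together, and Acly, Scd2 and Gpd1 lack some libraries. Also named are the 3 highest and 2 lowest ratios of each companion list with at least 20 UMIs. The 8 leading genes outside the lists had at least 50 UMIs. Pparg, Gpat4 and the members of counts of 5 or fewer were named after their values were seen. Promoters came from RefSeq's table. The values of 2 companion genes are not reported here.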

Additional observations from a re-analysis of the deposited data

Results flagged for a closer look

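Over all kept cells, 4 members were past 1.5-fold in opposite directions in the genotypes when 5-Aza was set against DMSO. The same count was not made over all genes, so it has no share to be set beside. Retn, Cfd and Cidec are gate genes, with 97.4%, 97.8% and 96.8% of their UMIs in adipocyte-like cells. Their values thus describe largely the same cells. On the log2(CPM + 1) scale the H3WT ratio of Retn was 3.22 and the H3R26C ratio -1.73, which lie -4.95 apart (H3R26C minus H3WT). Cfd was at 2.37 and -2.15, or -4.52 apart. Cidec was at 1.48 and -0.67, or -2.14 apart, and Gpd1 at 0.79 and -1.42, or -2.21 apart. These differences were not tested, since each value rests on 1 library per condition and on 13 to 31 adipocyte-like cells.

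Some members had signal in the barcodes that the cell filter left out, which no comparison used. Car3 was at 131 CPM there in H3WT 5-Aza and 66.0 CPM in H3R26C 5-Aza, against 0 and 0.495 CPM in the DMSO libraries. Cd36 was at 4.48 CPM in H3WT 5-Aza and 3.70 CPM in H3R26C 5-Aza, against the same DMSO values of 0 and 0.495 CPM. Retn was at 2.84 CPM in H3WT 5-Aza and 0 in H3WT DMSO. The limit that a count of 0 allows was 0.984 CPM in H3WT DMSO.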

How the results depend on the processing

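No paired analysis was possible because there was a single library per condition. The 5 spread members became 2 when cells were thinned to 5000 UMIs. With a pseudocount of 5 CPM, the members past 2-fold went from 5 to 3 (H3R26C against H3WT, DMSO), from 7 to 4 (the same, 5-Aza) and from 7 to 3 (5-Aza against DMSO, H3R26C). The shares of all genes fell as well. In the first, 0.718% were higher and 0.147% lower (1.91% and 0.588% before). In the second they were 2.01% and 1.21% (5.03% and 2.61% before). In the third they were 3.62% and 1.48% (9.09% and 3.02% before). With adipocyte-like cells left out the members past 2-fold were 0, 4 and 3 for H3R26C against H3WT in DMSO, the same in 5-Aza, and 5-Aza against DMSO in H3WT, which had 8. The shares of all genes beside these counts are given above. With muscle-like cells left out as well the members past 2-fold were 0, 3 and 3. Over all genes 1.85% were then higher and 0.588% lower, 5.20% and 2.59%, and 4.32% and 0.271%. Gate genes are lost in both settings by construction, and without them the DMSO count was 1 before and 0 after. In DMSO a minimum of 10 CPM gave 2 and the mean of per-cell CPM 3, and without the 5% of cells with the most UMIs the 8 became 5. Over all genes 1.19% were higher and 0.437% lower, 1.90% and 0.507%, and 5.27% and 0.270% in these settings. Fabp4 turned to -0.67 on the log2 scale in DMSO under both settings that left out adipocyte-like cells. Inside the gate, a limit of 100 gate UMIs, added after seeing the data, took the DMSO count without gate genes from 10 to 3. Apart from these, 67 values of the main comparisons stayed close to those reported. Aqp7, Cd36, Car3, Lpin1, Scd2 and Cidea changed class under at least 1 setting. Depth limits Lep, Pck1, Cidea, Aqp7 and Slc2a4, which had few UMIs, and 13 to 31 gated cells per library limit every level inside the gate.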
